A study of Mus musculus with 6 samples.

Results

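The 10 genes described here encode the major histocompatibility complex (MHC) class I molecules of the mouse and the machinery that loads them with peptide. They were taken by name from the 24047 rows of the gene count table, and 10 of 10 had a row. The members are the light chain gene B2m, the heavy chain genes H2-K1, H2-D1, H2-T23 and H2-M3, the transporter genes Tap1 and Tap2, the tapasin gene Tapbp, the peptidase gene Erap1 and the transcriptional regulator gene Nlrc5. In the 6 monocyte libraries all 10 passed the filter on low counts, and their RNA was read in kidney against spleen and bone marrow.

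Wild-type mice of the strain labelled C5/Bl6, 8 to 10 weeks old, had been given nephrotoxic nephritis, an antibody-driven injury of the glomerulus, and were killed on day 13. The 3 kidney libraries (replicates 7, 8 and 22, named double_pos) come from monocytes enriched with a kit and sorted, and the 3 spleen and bone marrow libraries (replicates 2, 24 and 26, named double) pool these organs in 1 label, sorted too but with no enrichment described. Both groups carried nephritis, no library came from untreated mice, and the labels neither name the markers behind "double" nor say whether a library is 1 mouse or a pool of the 10 mice. Tissue and handling therefore cannot be told apart, and p-values measure the spread between these samples, which may be technical. Spleen and marrow replicates 24 and 26 were more alike than any other pair within a group and may not be independent samples. The title of the series concerns the change of monocytes into macrophage-like cells in inflamed vessels.

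MHC class I molecules display peptides from inside the cell to CD8 T cells and to natural killer cells. Peptides cut by the proteasome are pumped into the endoplasmic reticulum by the TAP transporter, trimmed there by ERAP1, and loaded with the help of tapasin onto a heavy chain paired with beta-2-microglobulin. Nearly all nucleated cells make class I, whereas class II is restricted to antigen-presenting cells. Interferons raise class I in part through IRF1 and NLRC5, and NLRC5 acts on a promoter module of X and Y boxes shared by heavy chain genes and B2m.

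Part of that module, an X2 box spaced from a Y box, is visible in 4 of the promoters examined. The RefSeq promoter table (GRCm38.p6, a later build than the mm9 of the submitters' processing notes) held 8 of the 10 members, without Tap2 and Nlrc5. The 250 bases before the start are shown for the 4 members that carry the X2 box TGACG with the Y box, read as ATTGG on the printed strand, 20 bases after its end. Capitals mark these boxes and, in H2-K1 and H2-D1, the NF-kB site of the H-2 enhancer. The stretches are chr2:122147437-122147686, plus strand for B2m, chr17:34000348-34000597, minus strand for H2-K1 (the first of 2 listed starts), chr17:35262844-35263093, plus strand for H2-D1 and chr17:37269984-37270233, plus strand for H2-M3, each written 5′ to 3′ toward the gene.
B2m: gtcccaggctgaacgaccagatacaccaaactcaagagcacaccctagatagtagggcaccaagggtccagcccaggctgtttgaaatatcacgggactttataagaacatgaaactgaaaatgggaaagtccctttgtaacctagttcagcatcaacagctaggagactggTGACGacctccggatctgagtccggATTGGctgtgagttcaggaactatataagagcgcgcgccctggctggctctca
H2-K1: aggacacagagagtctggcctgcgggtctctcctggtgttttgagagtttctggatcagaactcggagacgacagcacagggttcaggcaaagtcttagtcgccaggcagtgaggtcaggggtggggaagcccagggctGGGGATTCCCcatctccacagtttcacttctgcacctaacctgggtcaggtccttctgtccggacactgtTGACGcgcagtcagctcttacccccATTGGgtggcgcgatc
H2-D1: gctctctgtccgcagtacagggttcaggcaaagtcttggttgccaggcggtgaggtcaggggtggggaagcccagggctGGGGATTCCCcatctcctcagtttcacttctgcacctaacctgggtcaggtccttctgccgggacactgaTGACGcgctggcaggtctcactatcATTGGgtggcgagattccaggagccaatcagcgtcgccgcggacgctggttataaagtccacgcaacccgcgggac
H2-M3: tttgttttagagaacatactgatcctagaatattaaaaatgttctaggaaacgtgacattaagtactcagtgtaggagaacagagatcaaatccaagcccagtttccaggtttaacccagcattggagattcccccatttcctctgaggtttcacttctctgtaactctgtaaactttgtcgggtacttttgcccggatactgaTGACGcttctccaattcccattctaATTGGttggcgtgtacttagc

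The first base of the X2 box lies 78 bases before the start in B2m, 41 in H2-K1, 101 in H2-D1 and 46 in H2-M3. The spaced pair occurs in 25 of 27025 promoters of the same length (0.0925%, either strand), and the NF-kB site in capitals in 22 (0.0814%). Both patterns were chosen after the promoters had been read. Of the other motifs searched on both strands, CCAAT was in 7 of 8 members (34.5% of all promoters) and TGACG in 5 (17.9%). AGCAAC, part of the X1 box, was in 0 (12.3%). The general NF-kB site, which overlaps the site in capitals, was in 5 (45.4%) and TTCNNNGAA in 1 (7.18%). An exact match to the strict pattern searched for the interferon-stimulated response element was in B2m and H2-T23, 2 of 8 against 3.04% of all promoters. Looser forms of this element were not searched. The other members, H2-K1, H2-D1 and H2-M3 among them, therefore cannot be said to lack it. A match describes letters in a window and is no measured binding site.

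**Figure D1:**
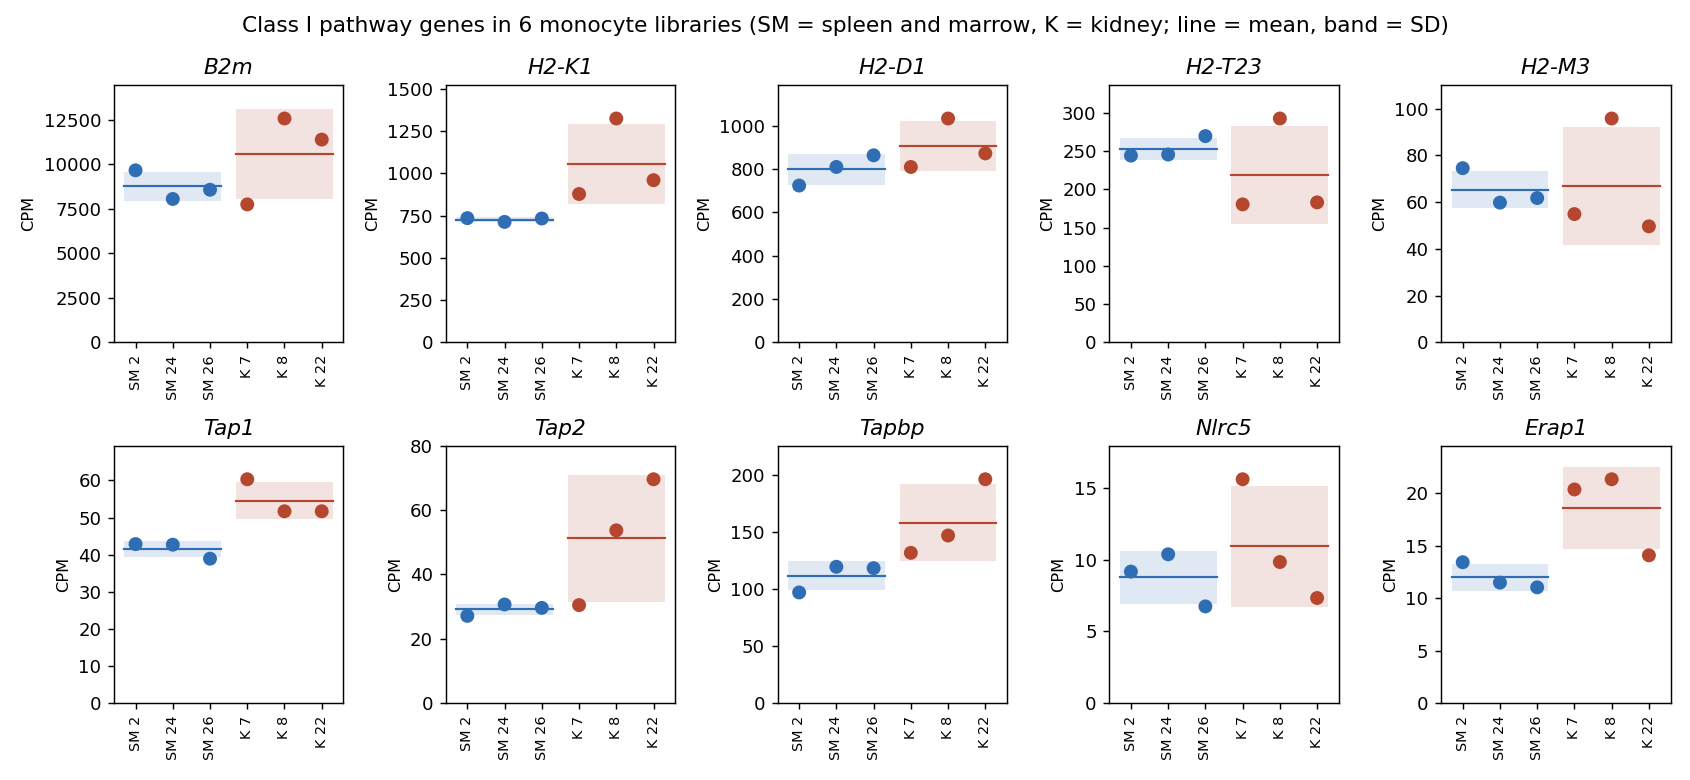
Normalised counts (CPM, y axis from 0) of the 10 class I pathway genes in each library (x axis, SM for spleen and marrow, K for kidney), with the group mean as a line and the SD as a band. The SD among kidney libraries exceeds that among spleen and marrow libraries for all 10 genes, and the groups do not overlap for H2-K1, Tap1, Tapbp and Erap1.

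Class I transcripts were abundant in both groups and none of the 10 genes passed the test between them. With edgeR's quasi-likelihood test and Benjamini-Hochberg adjustment over 10626 genes, 0 of 10 members were called at an adjusted p under 0.05, where 13.7% of all genes tested were called, 7.83% higher in kidney and 5.9% lower. CPM here are counts over the effective library size after TMM scaling. Without adjustment 4 of 10 had a p under 0.05, all of them higher in kidney (H2-K1, Tap2, Tapbp and Tap1), beside 27.9% of all genes in either direction and 15.4% higher in kidney. This number of members higher in kidney was 1 with spleen and marrow replicates 24 and 26 summed. It was also 1 on leaving out any single spleen and marrow library, and 0 on the FPKM scales. The shares of all genes under those settings are not given here. DESeq2 called 1 member (H2-K1) and limma-voom called 0. The log2 fold change was above 0 for 9 of 10 members, with a median of 0.36, beside 52.7% of all genes above 0 and a median of 0.05. In bulk samples a difference in the make-up of the cells and a difference in RNA per cell cannot be told apart.

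B2m, the light chain of every class I molecule, stood at 9668, 8057 and 8576 CPM in spleen and marrow replicates 2, 24 and 26. Kidney replicates 7, 8 and 22 held 7752, 12582 and 11396 CPM of it. Kidney replicate 7 was the lowest library of all and kidney replicate 8 the highest, so the groups overlapped. Its log2 fold change was 0.27 ± 0.18 (SE; edgeR adjusted p = 0.384), with a 95% interval from -0.15 to 0.69. B2m alone took between 0.805% and 1.27% of all counts in a library.

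H2-K1 and H2-D1 encode the classical heavy chains, which present to CD8 T cells. H2-K1 stood at 735, 713 and 733 CPM in spleen and marrow and at 878, 1325 and 960 CPM in kidney replicates 7, 8 and 22. Every kidney library lay above every spleen and marrow library for H2-K1, and its log2 fold change was 0.54 ± 0.17 (SE; edgeR adjusted p = 0.075; 95% interval 0.15 to 0.93). The call was made by DESeq2 (adjusted p = 0.0391), by edgeR with library size scaling (0.0492), after thinning to equal depth (0.0498) or without kidney replicate 7 (0.0451), and by limma-voom with sample weights (0.00627), with p from 0.00627 to 0.507 over 20 alternatives. H2-D1 stood at 723, 809 and 862 CPM in spleen and marrow and at 809, 1032 and 871 CPM in kidney. These ranges overlapped, and the log2 fold change was 0.18 ± 0.14 (edgeR adjusted p = 0.448; 95% interval -0.14 to 0.50), with -0.05 on the FPKM scale.

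H2-T23 and H2-M3 encode non-classical heavy chains. H2-T23 gives Qa-1, which presents leader peptides of other class I chains to natural killer cell receptors, and H2-M3 presents formylated peptides of bacteria and mitochondria. H2-T23 stood at 244, 246 and 270 CPM in spleen and marrow and at 180, 293 and 183 CPM in kidney replicates 7, 8 and 22. It was the single member with a log2 fold change below 0, at -0.21 ± 0.21 (edgeR adjusted p = 0.562; 95% interval -0.69 to 0.27). Kidney replicates 7 and 22 lay below all spleen and marrow libraries for it and kidney replicate 8 above them. H2-M3 showed the same split, with 74.5, 59.8 and 61.7 CPM in spleen and marrow and 54.9, 95.8 and 49.6 CPM in kidney. Its log2 fold change of 0.04 ± 0.27 (edgeR adjusted p = 0.949; 95% interval -0.58 to 0.65) changed sign under 8 of 20 alternatives, to -0.33 without kidney replicate 8 and -0.16 on the log2(FPKM + 1) scale.

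Of the loading genes, Tap1 and Tap2 encode the transporter's subunits. Tap1 stood at 42.8, 42.7 and 38.9 CPM in spleen and marrow and at 60.3, 51.7 and 51.7 CPM in kidney. All kidney libraries lay above the others, and the log2 fold change was 0.40 ± 0.17 (edgeR adjusted p = 0.171; 95% interval 0.01 to 0.79). Tap2 stood at 27.1, 30.6 and 29.6 CPM in spleen and marrow, and kidney replicates 7, 8 and 22 spread from 30.5 through 53.7 to 69.6 CPM. Kidney replicate 7 was within the range of spleen and marrow, and the log2 fold change of 0.81 ± 0.30 (edgeR adjusted p = 0.122; 95% interval 1.08-fold to 2.83-fold) was the highest of the 10. Without kidney replicate 7 it was 1.09 (edgeR adjusted p = 0.0223), and without kidney replicate 22 it was 0.51 (edgeR adjusted p = 0.175).

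Tapbp encodes tapasin, the bridge between the transporter and the heavy chain. It stood at 96.9, 119 and 118 CPM in spleen and marrow and at 132, 147 and 196 CPM in kidney replicates 7, 8 and 22, with no overlap. Its log2 fold change was 0.50 ± 0.19 (edgeR adjusted p = 0.129; 95% interval 0.06 to 0.94), and 0.30 without kidney replicate 22 (edgeR adjusted p = 0.192). Erap1, which trims peptides to length, stood at 13.4, 11.5 and 11.04 CPM in spleen and marrow and at 20.4, 21.4 and 14.1 CPM in kidney. The groups did not overlap for Erap1, although kidney replicate 22 was close to spleen and marrow replicate 2. The log2 fold change was 0.64 ± 0.28 (edgeR adjusted p = 0.182; 95% interval -0.01 to 1.29), and without kidney replicate 22 it was 0.78, at an edgeR adjusted p of 0.0303.

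Nlrc5, the regulator that switches on class I promoters, was the least abundant member. It stood at 9.19, 10.4 and 6.75 CPM in spleen and marrow and at 15.6, 9.86 and 7.34 CPM in kidney replicates 7, 8 and 22. A single kidney library lay above the spleen and marrow range. Its log2 fold change was 0.33 ± 0.39 (edgeR adjusted p = 0.632; 95% interval -0.56 to 1.22), and -0.01 without kidney replicate 7. The 25 counts of Nlrc5 in kidney replicate 22, the shallowest library, limit its precision.

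On the log2(FPKM + 1) scale several of these values were closer to 0. The log2 fold change there was 0.14 for B2m, 0.39 for H2-K1, 0.21 for Tap1, 0.43 for Tap2, 0.28 for Tapbp and 0.28 for Erap1, and it was -0.34 for H2-T23. None of these 7 was called by limma-trend, whose adjusted p ran from 0.272 for Tap2 to 0.719 for B2m. The median of all genes on this scale was -0.16. The small RNA gene Mir6236 took 17.1% to 17.8% of summed FPKM in spleen and marrow and 6.96% to 9.82% in kidney, which was not corrected for.

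The CPM of the groups did not overlap in 4 of 10 members (H2-K1, Tap1, Tapbp and Erap1), each of them higher in kidney, beside 37.9% of all genes tested, 19.2% higher in kidney and 18.8% lower. For 7 of 10 members the 95% interval, which is per gene and not adjusted for the number of genes, lay wholly within a 2-fold change in either direction, as it did for 32.4% of all genes, and intervals are narrower for abundant genes. The exceptions were Tap2, Erap1 and Nlrc5, whose upper ends were 2.83-fold, 2.44-fold and 2.33-fold. For the 4 heavy chains summed into 1 row before the fit the log2 fold change was 0.28 ± 0.15 (edgeR adjusted p = 0.276).

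**Figure D2:**
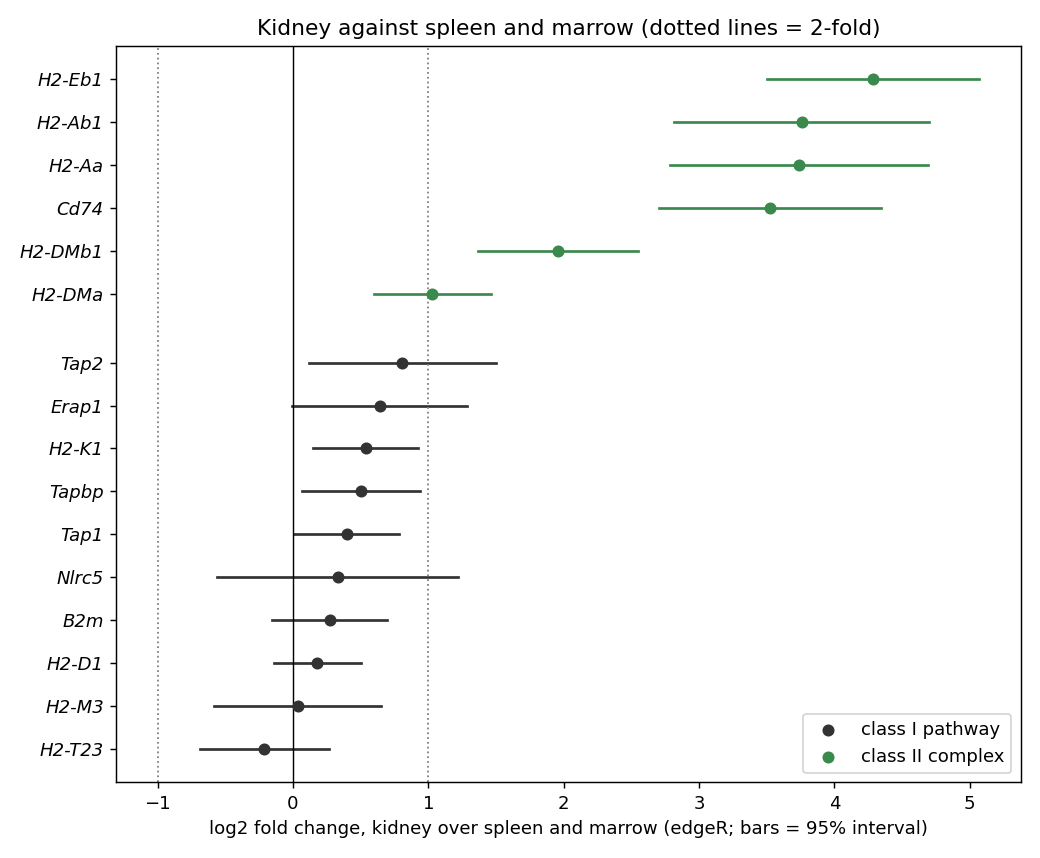
Log2 fold change of kidney over spleen and marrow (x axis) with its 95% interval for each class I pathway gene and, for comparison, 6 genes of class II presentation (y axis). The class I points lie between -0.21 and 0.81, and the class II points between 1.03 and 4.29.

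Class II presentation stood far from class I in the same libraries. Of 6 genes of the class II complex, picked for this comparison with their values known, 6 rose, with a median log2 fold change of 3.63. H2-Ab1, a class II chain, rose by a log2 fold of 3.76 ± 0.41 (edgeR adjusted p = 0.00149), and the lower end of its 95% interval was 2.82. The counts of H2-K1 and H2-D1 together were 1.52, 2.40 and 2.29 times those of H2-Aa, H2-Ab1 and H2-Eb1 together in spleen and marrow replicates 2, 24 and 26. In kidney replicates 7, 8 and 22 they were 0.225, 0.131 and 0.243 times those of the class II chains. The log2 ratio thus fell by 3.40 from spleen and marrow to kidney, with exact two-sided permutation p = 0.1, the smallest that 3 against 3 libraries allow. The upper limits of H2-K1 and H2-D1 were 1.90-fold and 1.42-fold. The call of H2-DMa, which helps load class II, was lost under 8 of 20 alternatives.

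Ratios within a library do not depend on scaling between libraries, and those of H2-K1 with the other member heavy chains separated the groups. All 3 heavy chain ratios given here contain H2-K1, so they are not independent. Ratios among H2-D1, H2-T23 and H2-M3 were not computed. The count ratio of H2-K1 to H2-D1 was 1.02, 0.881 and 0.850 in spleen and marrow and 1.09, 1.28 and 1.10 in kidney replicates 7, 8 and 22, with no overlap. On the log2 scale the difference was 0.34, and 0.43 with FPKM in place of counts. The count ratio of H2-T23 to H2-K1 was 0.332, 0.345 and 0.368 in spleen and marrow and 0.205, 0.221 and 0.191 in kidney. This log2 ratio was lower in kidney by a difference of -0.76, beyond the SD of 0.11 among kidney and 0.075 among spleen and marrow libraries. The H2-M3 to H2-K1 ratio differed by -0.54 on the log2 scale, also without overlap. For these 3 ratios and the class I to class II ratio the exact two-sided permutation p was 0.1, the smallest possible, and 0.15 adjusted over the 6 ratios computed. The H2-T23, H2-M3 and class II ratios were added after the values had been seen.

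The remaining ratios showed no such separation. The heavy chain sum was between 0.181 and 0.248 of the B2m count in kidney and between 0.184 and 0.227 in spleen and marrow (difference 0.02 on the log2 scale, exact permutation p = 1). Tap1 to Tap2 was 1.58, 1.39 and 1.32 in spleen and marrow, but 1.98, 0.962 and 0.743 in kidney replicates 7, 8 and 22, on both sides of the other group (difference -0.34, exact permutation p = 0.5). The transporter's subunit genes thus varied against each other among the kidney libraries with a log2 SD of 0.73, beside 0.14 in spleen and marrow.

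**Figure D3:**
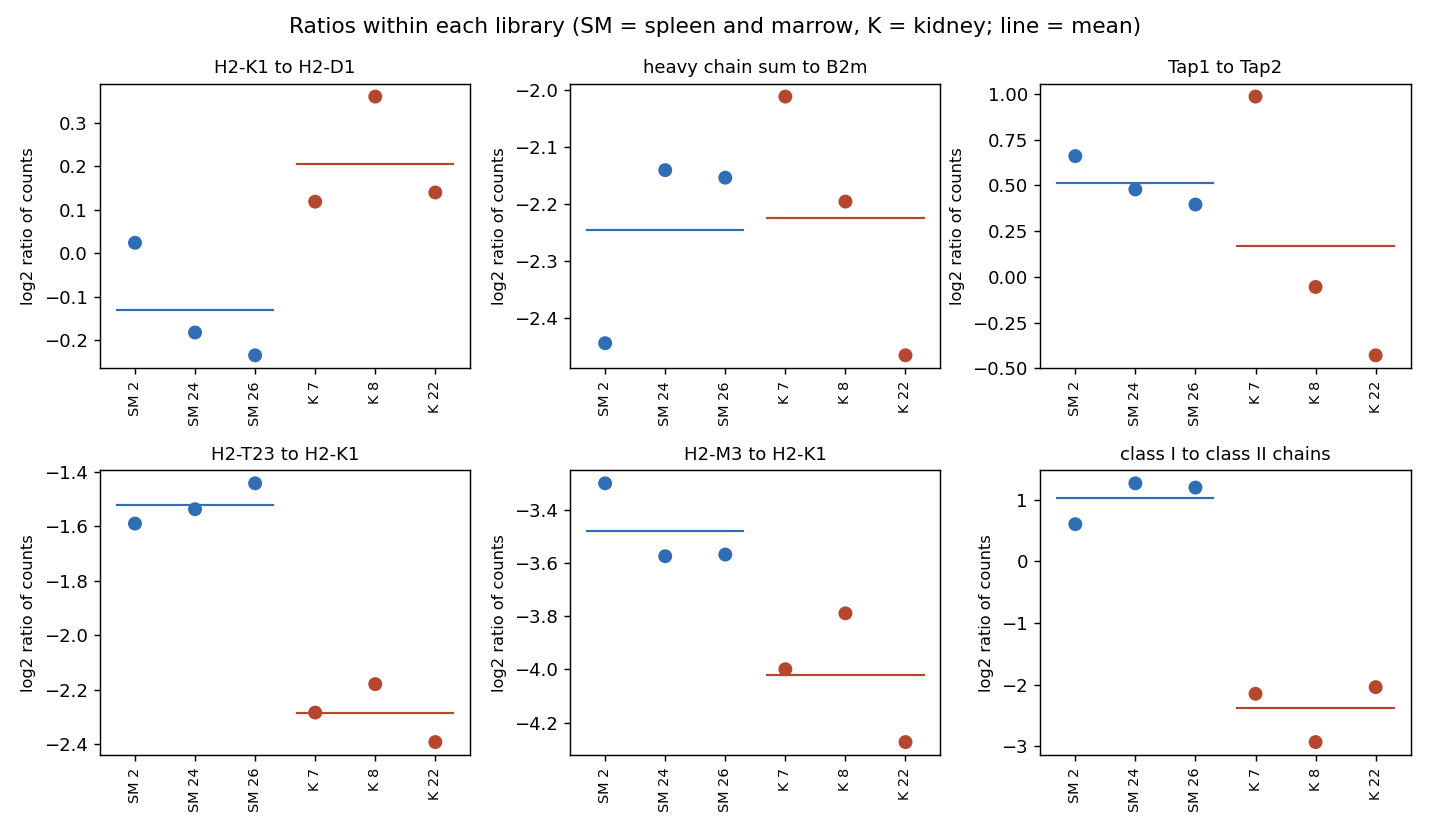
Log2 ratio of counts (y axis) within each library (x axis, SM for spleen and marrow, K for kidney) for 6 pairs, with group means as lines. H2-K1 to H2-D1, H2-T23 to H2-K1, H2-M3 to H2-K1 and class I to class II chains separate the groups, and the heavy chain sum to B2m and Tap1 to Tap2 do not.

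Levels can be set against each other between genes per transcript length, on the deposited FPKM scale. This scale has faults: Lyz2 held 502608 counts but 0 FPKM in spleen and marrow replicate 26. B2m led in every library, at 8.62 to 13.0 times the FPKM of H2-D1. H2-D1 followed with 1.92 to 2.95 times the FPKM of H2-K1, H2-K1 with 1.751 to 3.20 times that of H2-T23, and H2-T23 with 3.83 to 5.61 times that of H2-M3. The steps among H2-D1, H2-K1 and H2-T23 are uncertain, since these genes share sequence. In counts, which are not per length, H2-K1 was 0.850 to 1.28 times H2-D1. H2-M3 and Tapbp were neighbours whose order differed between libraries (ratio 0.575 to 1.74), as were Tap1 and Tap2 (ratio 0.675 to 1.49). Tapbp exceeded Tap1 by 2.203 to 3.84 times. Tap2 exceeded Erap1 by 2.45 to 7.50 times and Erap1 exceeded Nlrc5 by 2.63 to 9.20 times. Apart from those 2 pairs the order was the same in all 6 libraries.

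**Figure D4:**
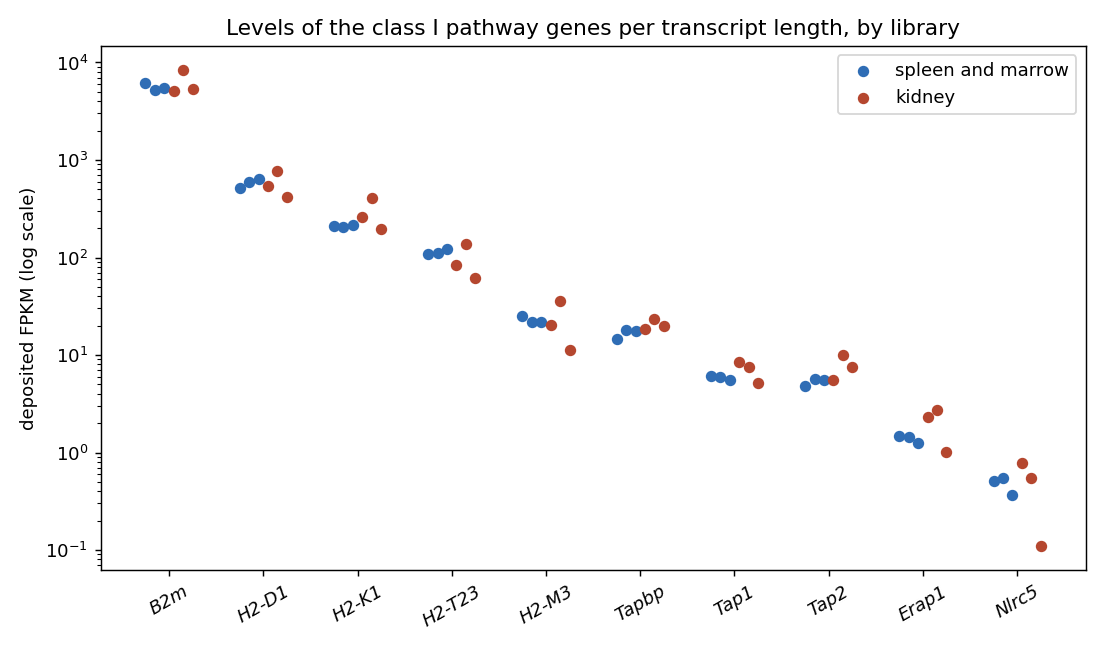
Deposited FPKM (y axis, log scale) of each class I pathway gene (x axis, from the highest to the lowest median) in the 6 libraries, colored by group. The order from B2m down to Nlrc5, which is below 1 FPKM, is the same in all 6 libraries, except that H2-M3 and Tapbp, and Tap1 and Tap2, change places between libraries.

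The kidney libraries differed among themselves more than the spleen and marrow libraries did, and no single one set all members. Kidney replicate 8 held the most B2m, H2-K1, H2-D1, H2-T23, H2-M3 and Erap1, replicate 22 the most Tap2 and Tapbp, and replicate 7 the most Tap1 and Nlrc5. Endothelial markers (12 of 12 with a row) summed to 32.8, 980 and 22.02 CPM in kidney replicates 7, 8 and 22 and to between 8.07 and 13.1 CPM in spleen and marrow. The endothelial cadherin gene Cdh5 had 6, 228 and 0 counts in kidney replicates 7, 8 and 22, and 1, 0 and 0 in spleen and marrow. Without kidney replicate 8 the log2 fold changes were 0.13 for B2m, 0.33 for H2-K1, 0.07 for H2-D1 and -0.49 for H2-T23, with edgeR adjusted p of 0.727, 0.148, 0.786 and 0.0636. Neutrophil markers (10 with a row) summed to 1229, 4423 and 43862 CPM in kidney replicates 7, 8 and 22 and to between 23655 and 30449 CPM in spleen and marrow. The largest part was S100a8, at 531, 1682 and 16137 CPM in kidney and 9919 to 12055 CPM in spleen and marrow. Mmp8, the single neutrophil marker called (lower, edgeR adjusted p = 0.00999), stood at 155, 79.5 and 139 CPM in kidney and 279 to 422 CPM in spleen and marrow. Tubule markers (12 with a row) summed to between 286 and 1816 CPM in kidney and near 24 CPM in spleen and marrow (24.2 to 24.7). Most of that sum was Gpx3, at 445, 204 and 1288 CPM in kidney replicates 7, 8 and 22 and 23.1 to 23.8 CPM in spleen and marrow. One by one, 5 of 6 tested tubule markers were called higher in kidney, Gpx3 among them, and 0 lower. T and natural killer cell markers (11 with a row, 4 tested, 0 called) summed to between 9.12 and 41.1 CPM in kidney and between 96.4 and 119 CPM in spleen and marrow. Most of this sum in spleen and marrow was the cytotoxic granule gene Nkg7, at 107, 73.7 and 78.9 CPM. In kidney replicates 7, 8 and 22 it stood at 0.237, 7.71 and 26.4 CPM (edgeR adjusted p = 0.0861). The next most abundant gene of this list, Gzma, overlapped between the groups, with 2.01 to 13.3 CPM in kidney and 1.49 to 20.3 CPM in spleen and marrow. B and plasma cell markers ranged from 30.2 to 136 and from 64.0 to 79.2 CPM, dendritic cell markers from 5.58 to 65.3 and from 33.4 to 57.7 CPM, and mural and fibroblast markers from 15.5 to 54.6 and from 11.5 to 13.2 CPM. The part of these cells in the class I values was not tested. All 10 monocyte markers had counts in every library, at least 249, and summed to between 46560 and 50600 CPM in kidney and between 55383 and 74235 CPM in spleen and marrow. Most of that sum was the lysozyme gene Lyz2, at 29441 to 53871 CPM in a library. One by one, 5 of the 10 monocyte markers rose in kidney (Csf1r, Cx3cr1, Cd14, Fcgr3 and Itgam), 2 fell (Lyz2 and Ly6c2), and the median log2 fold change was 0.81.

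**Figure D5:**
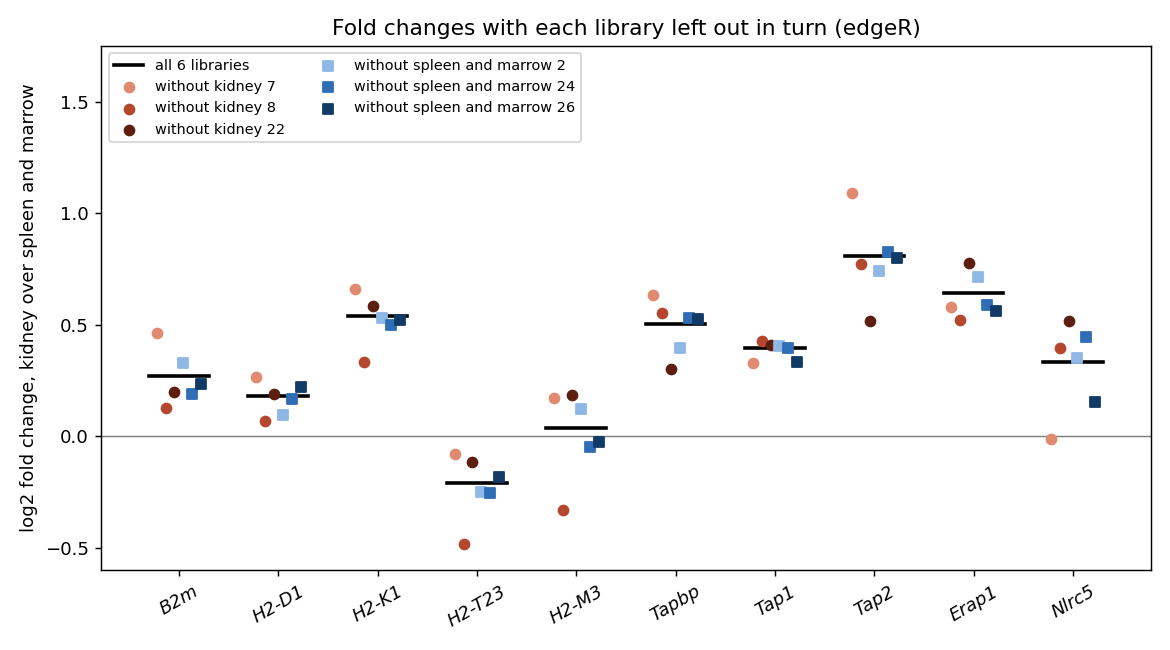
Log2 fold change of kidney over spleen and marrow (y axis) for each class I pathway gene (x axis) with all 6 libraries (black bar) and with each library left out in turn (points). H2-M3 ranges from -0.33 to 0.19 and Tap2 from 0.51 to 1.09 depending on the library left out, and Tap1 stays between 0.33 and 0.43.

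The heavy chains belong to a family of close copies, which bears on what their rows count. In GENCODE M21 transcripts (GRCm38), 9.63% of the 50-base windows of H2-K1, 12.8% of those of H2-D1 and 13.6% of those of H2-T23 occur also in transcripts of another gene, and 141 windows are common to H2-K1 and H2-D1. The share was 0.576% for H2-M3, at most 2.87% for Tap1, Tap2 and Tapbp, and 0% for B2m, Erap1 and Nlrc5. Reads from such windows could be split between genes or dropped, so the values of H2-K1, H2-D1 and H2-T23 are uncertain, by an amount that was not measured. Tap1 also lies beside Psmb9 on the opposite strand, and in these unstranded libraries reads from an overlap of such neighbours cannot be told apart. Of 25 other class I heavy chain rows of the locus, 15 held no count in any library, yet 8 of these 15 held at least 1 FPKM in all 6. H2-Q7, a chain of the Qa-2 group, had 0 counts throughout and 7.75, 24.7 and 8.08 FPKM in kidney replicates 7, 8 and 22 against 8.98, 5.98 and 6.96 FPKM in spleen and marrow. The deposited tables thus treat this family differently, and which step does so is not given in the sources used here. All other heavy chain rows together made up 1.2003% to 2.498% of heavy chain counts and 7.33% to 9.63% of heavy chain FPKM.

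Of the 25 other heavy chain rows 6 were tested and 0 were called by edgeR, 0 of them at an unadjusted p under 0.05. For H2-T24, the most abundant of these, the log2 fold change was 0.048 ± 0.56 (edgeR adjusted p = 0.967), with opposite sign under 7 of 20 alternatives. Outside the locus, 4 of 6 genes of the class I fold were tested and 2 rose, where 7.83% of all genes tested rose. Hfe, whose product controls iron uptake through the transferrin receptor, rose from between 36.2 and 41.5 to between 63.9 and 110 CPM, a log2 fold of 1.11 ± 0.22 (edgeR adjusted p = 0.0165). Fcgrt, the heavy chain of the neonatal Fc receptor that recycles antibody and albumin, rose from between 23.4 and 32.9 to between 46.0 and 71.7 CPM, a log2 fold of 1.08 ± 0.24 (edgeR adjusted p = 0.0253). Both proteins pair with beta-2-microglobulin and neither presents peptide. The calls of Hfe and Fcgrt were lost on leaving out single libraries, with edgeR adjusted p up to 0.0920 and 0.123. Cd1d1, which presents lipids, stood at -0.43 ± 0.43.

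Further steps of loading and trimming gave 1 call, a fall, among 19 genes tested, where 5.9% of all genes fell, and the list median was 0.05. Sec61b, of the channel through which proteins enter the endoplasmic reticulum, fell from between 588 and 795 to between 309 and 357 CPM, or -1.03 ± 0.15 on the log2 scale (edgeR adjusted p = 0.00554). Psmb8, a catalytic subunit of the immunoproteasome and the most abundant gene of the list without a call, stood at -0.20 ± 0.20 (edgeR adjusted p = 0.563). Of the genes that act on class I transcription 1 of 18 was called, beside 13.7% of all genes. Irf2, an interferon regulatory factor that binds class I promoters, rose by a log2 fold of 0.61 ± 0.16 (edgeR adjusted p = 0.0417), a call lost under 10 of 20 alternatives. Irf8, a factor of the monocyte lineage, stood at -0.15 ± 0.16 (edgeR adjusted p = 0.618). Irf1, an interferon regulatory factor named after its value was seen, stood at 0.60 ± 0.19 (edgeR adjusted p = 0.0729).

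Of 11 interferon receptor and feedback genes 3 rose and 0 fell, where 7.83% of all genes tested rose. Socs3 and Socs1, which damp cytokine signalling, rose by log2 folds of 2.11 ± 0.37 and 1.90 ± 0.44, and Ifngr1, the ligand-binding chain of the interferon gamma receptor, by 0.71 ± 0.19 (edgeR adjusted p = 0.0103, 0.0262 and 0.0423). These calls were lost under 8, 7 and 9 of 20 alternatives. Ifnar2, a chain of the type I interferon receptor, stood at 0.11 ± 0.15. Of 10 tested genes of surface traffic and of paired or leukocyte immunoglobulin-like receptors, 5 rose and 0 fell, beside the same 7.83% of all genes. The 5 were Ehd1, Gp49a, Lilrb4, Lilra5 and Pira6. The log2 fold change was above 0 for 7 of the 10. Among those below 0, Lilra6 stood at -1.14 ± 0.32 without overlap and Pirb at -0.24 ± 0.16 (edgeR adjusted p = 0.0543 and 0.386). Of the 19 genes listed, 14 had a row under the listed name, and March1, March8 and March9 were among those without. Which of the receptors read class I was not examined. Ehd1, which returns class I from endosomes to the surface, rose from between 10.3 and 16.4 to between 54.3 and 67.8 CPM, a log2 fold of 2.23 ± 0.24 (edgeR adjusted p = 0.00149). Gp49a and Lilra5, of the leukocyte immunoglobulin-like receptors, rose by log2 folds of 1.45 ± 0.14 and 3.34 ± 0.61 (edgeR adjusted p = 0.00109 and 0.0116). The Lilra5 call was lost under 5 of 19 alternatives. Gp49a is a close copy of Lilrb4, so the values of both are uncertain. Pira6, a paired receptor with close copies and another of the 5, rose by a log2 fold of 2.57 ± 0.64 in counts (edgeR adjusted p = 0.0364), whereas its mean FPKM was 3.67 in kidney and 3.55 in spleen and marrow. Rab11a, a GTPase of recycling endosomes, stood at 0.22 ± 0.11 (edgeR adjusted p = 0.262).

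The genes nearest in pattern to Nlrc5 and B2m were sought among 5159 tested genes by the root mean square difference of centred log2 CPM over the 6 libraries. For Nlrc5 they were Kdm6b, Rprd2, Rsrc1, Rnf216 and Gak, with differences from 0.067 to 0.16. For B2m they were Qdpr, Srpr, Ctsc, Aga and Nt5m, from 0.070 to 0.11. Like Nlrc5, the first set was highest in kidney replicate 7, and Qdpr, Srpr, Aga and Nt5m were highest in kidney replicate 8, as B2m was, whereas Ctsc was highest in kidney replicate 22. None of these 10 genes was called by edgeR. Because they were chosen for likeness to uncalled genes, the lack of calls and the shared peaks follow largely from that choice.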

How the data were processed

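RNA was sequenced in 3 kidney and 3 spleen and bone marrow monocyte libraries. Per the labels' protocols, cDNA was made with SMART-Seq v4 from 2 ng of RNA, a chemistry that does not mark strand. The authors deposited unnormalised counts for each gene symbol and, separately, FPKM values. The build mm9 and the tools STAR 2.5, bcl2fastq 2.18 and Cufflinks 2.2.1 are named, per the submitters' processing notes, without their roles. For the counting program and the annotation, nothing is given in the sources used here.

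Totals ran from 3492391 (kidney replicate 22) to 9727489 counts (spleen and marrow replicate 26). Counts were filtered with filterByExpr, scaled with TMM and tested with edgeR 4.0.16 in R 4.3.3 (glmQLFit, glmQLFTest, two-sided), with calls at a Benjamini-Hochberg adjusted p under 0.05 over all 10626 genes. CPM uses the TMM-adjusted library size. The standard error is the log2 fold change divided by the square root of F. Alternatives used DESeq2 1.42.0, limma 3.58.1 (voom, or limma-trend after adding 1 or 0.1 to FPKM and taking log2, for genes of at least 1 FPKM in 3 libraries), other scalings and filters, thinning, and leaving out libraries. The fits were tested on simulated data, drawn as independent libraries with the same dispersion in both groups. That setting leaves out the wider spread among kidney libraries and the likeness of spleen and marrow replicates 24 and 26.

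The members and lists were chosen with earlier results of these data known. Named genes are the members, up to 3 called genes per direction and the most abundant gene without a call of each pathway list, and the 5 genes nearest in pattern to Nlrc5 and B2m among genes whose mean log2 CPM reached 4; unnamed loci, receptor segments and small RNA genes were left out. Sequences come from RefSeq (GRCm38.p6). Figures were drawn with matplotlib 3.10.9.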

Additional observations from a re-analysis of the deposited data

How the results depend on the processing

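No paired analysis was possible because the groups share no replicate number. Over 20 alternatives, 0 members were called lower. The number called higher was 0 to 2 on leaving out single libraries. It was 1 with library size scaling, with DESeq2 and after thinning to equal depth (H2-K1 each time), and 2 with limma-voom and sample weights (H2-K1 and Erap1). The members' median log2 fold change lay between 0.17 and 0.43. Library size scaling moved the median of all genes to 0.11 and limma-trend on log2(FPKM + 1) to -0.16.

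Of 198 member values 13 had the opposite sign, each uncalled. H2-D1 was -0.047 on both log2(FPKM) scales, with or without the filter. The median of all genes was -0.16 on log2(FPKM + 1), -0.22 on log2(FPKM + 0.1) and 0.0065 on unfiltered log2(FPKM + 1). H2-M3 was -0.16 on log2(FPKM + 1), with or without the filter, -0.18 on log2(FPKM + 0.1), -0.011 with no filter on low counts, -0.042 with spleen and marrow replicates 24 and 26 summed, and -0.33 to 0.19 on leaving out single libraries. Nlrc5 was -0.019 on unfiltered log2(FPKM + 1) and -0.011 to 0.52 on leaving out single libraries. H2-T24 was -0.37 with limma-voom, -0.65 with sample weights, -0.20 and -0.34 on the FPKM scales and -0.64 to 0.46 on leaving out single libraries. Ifnar2 was -0.017 on the FPKM scales and -0.0059 to 0.23 on leaving out single libraries. On log2(FPKM + 1) and log2(FPKM + 0.1), Rsrc1 was -0.032 and -0.052, Rnf216 -0.064 and -0.13, Aga -0.050 and -0.055 and Nt5m -0.025 and -0.033. Leaving out single libraries gave -0.20 to 0.29 for Rnf216, -0.013 to 0.31 for Aga and -0.058 to 0.38 for Nt5m.

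The summed heavy chains stood at 0.11 to 0.39 on leaving out single libraries and 0.29 with all heavy chain rows summed. The log2 ratio of heavy chain sum to B2m was -0.11 on FPKM and -0.084 to 0.14 on leaving out single libraries. On leaving out single libraries, the H2-K1 to H2-D1 difference was 0.26 to 0.41, H2-T23 to H2-K1 -0.81 to -0.71, H2-M3 to H2-K1 -0.65 to -0.41, Tap1 to Tap2 -0.75 to -0.046 and class I to class II -3.61 to -3.12.

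All genes called higher numbered 832 and lower 627. They were 322 and 189 at adjusted p under 0.01, 299 and 201 with replicates 24 and 26 summed, 1352 and 1048 with sample weights, and 260 to 1569 and 179 to 1215 on leaving out single libraries. Those higher were 407 on either log2(FPKM) scale and 333 unfiltered, and those lower 995 with DESeq2. Replicates 24 and 26 had a chi-square over degrees of freedom of 2.86, against 22.2 to 59.7 for other pairs within a group. They may not be independent samples, although the main fit counted them as such. With them summed, the log2 fold change of H2-K1 was 0.51 (edgeR adjusted p = 0.229). The 25 to 132 counts of Nlrc5 and 48 to 172 of Erap1 limit their precision.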

Other observations

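The spaced pair of TGACG and ATTGG stood before 25 genes in all, of which 17 were tested, among them 4 members. Nfe2l1, a transcription factor that drives proteasome genes, rose by a log2 fold of 1.01 (edgeR adjusted p = 0.0240). Nasp, a histone chaperone, stood lower in kidney at -1.93 (edgeR adjusted p = 0.00737). The other 15 were not called, and the median log2 fold change over the 17 was 0.20. These genes were chosen by sequence after the promoters had been read.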
